A study of Mus musculus with 6 samples.

Results

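The red cell microRNAs (miRNAs) miR-451a, miR-144 and miR-486 were followed in a small RNA library of mouse liver. The members were chosen by name, as every mouse entry of miR-451a, miR-451b, miR-144, miR-486a or miR-486b, whichever arm of the hairpin it comes from. This gave 8 of the 1978 mouse entries, and 7 distinct sequences of 1963, because the 5p arms of miR-486a and miR-486b are identical. Of these 7 sequences 6 had reads, and miR-451b had none. The mice had received AAV9, an adeno-associated viral vector, that carries Cre recombinase behind a Tnnt2 promoter, which is meant to act in heart muscle cells. An element named after miR-122 was added to this vector for the Cre-miR122 group and was absent from that of the Cre group. No source used here gives the genotype, strain, age or time after injection. The labels name 3 libraries in each group. Counts of 1 library, Cre-miR122 replicate 2, were used, and the other 5 were not analysed here, so nothing below compares the groups and no value has a replicate.

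Red cells lose their nucleus but keep a large store of small RNA, in which miR-451a is known to dominate. miR-451a and miR-144 are made from a common transcript that the erythroid factor GATA1 switches on. miR-144 follows the usual path, in which Drosha cuts out the hairpin and Dicer removes its loop. The hairpin of miR-451a is too short for Dicer, so Ago2 itself cuts the 3′ side of the stem, and exonucleases such as PARN then trim the product back toward the loop. miR-486 lies within Ank1, the gene of the red cell membrane protein ankyrin, and is made in striated muscle as well as in red cells.

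Mature sequences are given first, because the seed, bases 2 to 8 and here in capitals, sets which messages a miRNA can pair with. They are RefSeq sequences on GRCm38.p6, all from chromosome 11. RefSeq entries were printed for 4 of the members, and the miR-486 members are named only.
mmu-miR-451a: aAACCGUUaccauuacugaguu
mmu-miR-144-5p: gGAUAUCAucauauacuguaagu
mmu-miR-144-3p: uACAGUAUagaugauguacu
mmu-miR-451b: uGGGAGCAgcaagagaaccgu
No other distinct mouse sequence of the table shared bases 2 to 8 with miR-451a, miR-144-5p, miR-144-3p or miR-486a-5p. Those of miR-486a-3p were shared by 3, miR-486b-3p, miR-326-5p and miR-6954-5p, which together held 4 reads. The 2 hairpins of the plus strand follow, with the mature sequences in capitals, to show that miR-144 has an arm on each side of its loop and that miR-451a runs from the 5′ side into the loop.
Mir144 hairpin: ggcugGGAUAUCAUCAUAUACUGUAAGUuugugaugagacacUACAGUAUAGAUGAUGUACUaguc
Mir451a hairpin: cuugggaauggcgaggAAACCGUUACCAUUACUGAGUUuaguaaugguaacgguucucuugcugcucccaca
On GRCm38, Mir144 lies at chr11:78073005-78073070 and Mir451a at chr11:78073170-78073241, with 99 bases between them. Neither lies in another gene of that strand, and the only protein-coding gene within 10000 bases is Eral1 on the minus strand. Mir451b is annotated at the position of Mir451a on the minus strand.

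The library held 6661069 reads on distinct mouse sequences, and 546 of those sequences had at least 1 read. Entries of other species that lie exactly in a mouse hairpin record reads with other ends. These end forms raised the total to 8032202 reads and the number of mouse sequences with reads to 595. Shares below are percentages of the first total for the mouse entry alone and of the second total with end forms. Intervals in parentheses are exact 95% intervals. They cover the counting error of reads only, since PCR copies were not told apart. Ligation also favours some small RNAs, so a ratio of reads between miRNAs is not a ratio of molecules.

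The 6 members with reads together held 2897 reads, 0.0435% of mouse reads (0.0419 to 0.0451). With end forms they held 5898 reads, or 0.0734% (0.0716 to 0.0753). These reads were very unevenly spread, and almost all of them were miR-486a-5p/miR-486b-5p or miR-451a. By mouse entries miR-486 made up 88.9% of the red cell reads, miR-451a 10.5% and miR-144 0.621%. With end forms the parts were 54.8%, 44.7% and 0.543%.

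miR-486a-5p/miR-486b-5p, which represses Foxo1 in mouse muscle, held 2549 reads, 0.0383% of mouse reads (0.0368 to 0.0398), and ranked 45 among mouse sequences. With end forms it held 3066 reads, 0.0382% (0.0368 to 0.0395), at rank 61. miR-451a, which represses the 14-3-3 gene Ywhaz in mouse erythroid cells, held 305 reads by its mouse entry, 0.00458% (0.00408 to 0.00512), at rank 112. With end forms it held 2635 reads, 0.0328% (0.0316 to 0.0341), at rank 66. The mouse entries thus put miR-486-5p at 8.36 reads per read of miR-451a (7.42 to 9.44), and all recorded ends put it at 1.16 (1.10 to 1.23).

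The other members were low. miR-486a-3p held 21 reads, or 161 with end forms at rank 182. miR-144-5p held 15 reads, or 25 with end forms at rank 287. miR-144-3p held 3 reads, or 7 with end forms at rank 365. miR-486b-3p held 4 reads under either count. With end forms the order was miR-486-5p, miR-451a, miR-486a-3p, miR-144-5p, miR-144-3p and miR-486b-3p. The counting intervals of neighbours in that order overlapped only for the last pair, miR-144-3p and miR-486b-3p. miR-451b had 0 reads, which allows a share of up to 4.5e-05% of mouse reads at a floor of 3 reads, or 5.54e-05% by the exact 95% interval.

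Most reads of miR-451a ended before the last base of its mouse entry. Recorded forms of 19 to 23 nt share the same first base and are printed with the bases after the 19th in capitals. The table writes T for U.
miR-451a 19 nt: aaaccgttaccattactga
miR-451a 20 nt: aaaccgttaccattactgaG
miR-451a 21 nt: aaaccgttaccattactgaGT
miR-451a 22 nt: aaaccgttaccattactgaGTT
miR-451a 23 nt: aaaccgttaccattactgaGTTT
The 19-nt form held 7 reads and the 20-nt form 49. The 21-nt form held 2197 reads, 83.4% of the arm (81.9 to 84.8). The 22-nt form, which is the mouse entry and that of 11 other species codes, held 305 reads, 11.6% (10.4 to 12.9). The 23-nt form, recorded for 9 species codes, held 77 reads, 2.92% (2.31 to 3.64). The most frequent end was therefore 1 base short of the mouse entry, with 7.20 reads per read of the 22-nt form (6.39 to 8.15) and 44.8 per read of the 20-nt form (33.8 to 60.8). The 21-nt form is listed in the table for a single species code, the Atlantic cod code gmo.

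**Figure D1:**
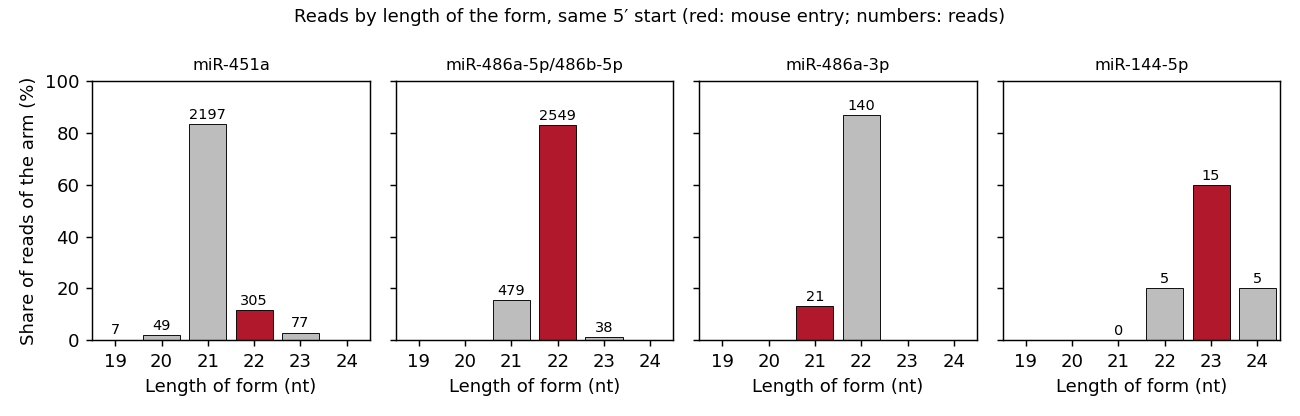
Reads of 4 arms by the length of the recorded form in nt (x axis), as a percentage of the reads of the arm (y axis), for forms that share the first base of the mouse entry. Red bars are the mouse entries and the numbers are reads. miR-451a peaks at 21 nt, 1 base short of its mouse entry, and miR-486a-3p peaks at 22 nt, 1 base longer than its own. miR-486a-5p/miR-486b-5p and miR-144-5p peak at their mouse entries of 22 and 23 nt.

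A fold predicted with RNAfold placed these ends on the hairpin. The predicted terminal loop of Mir451a covers positions 35 to 38 of its 72 bases, and the mature sequence starts at position 17. The forms of 19, 20, 21 and 22 nt end at positions 35, 36, 37 and 38, all in that loop, and the 23-nt form ends at position 39, just past it. Ago2 cuts the strand that faces bases 10 and 11 of its guide. In miR-451a these bases were paired with positions 47 and 46, so a cut between those positions would leave a product of 30 nt. The table has no entry over 23 nt that starts at this base, so that product and its partly trimmed forms over 23 nt could not be counted here, although inserts of 18 to 40 nt were selected per the labels. No entry records another start on the 5′ side, so the 5′ end was not measured either. The 3′ side of Mir451a is recorded by 2 entries of other species, and both had 0 reads. With 3 reads set in place of 0 for both together, the recorded forms of the 5′ side were 878-fold higher. Ends of the 3′ side that no entry records could not be counted, so this is not a lower limit.

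**Figure D2:**
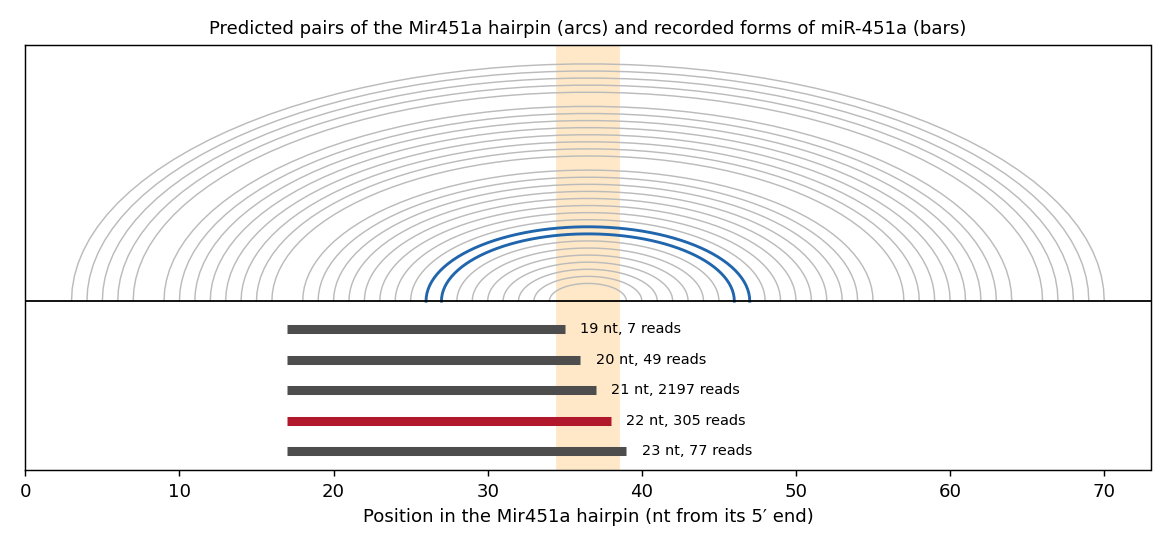
Map of the Mir451a hairpin with position in nt on the x axis, predicted base pairs as arcs and the 5 recorded forms of miR-451a as bars labelled with length and reads. The shaded band is the predicted loop at positions 35 to 38, the blue arcs are the pairs of bases 10 and 11, and the red bar is the mouse entry.

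Short 3′ ends were not particular to miR-451a. There were 66 arms with at least 1000 reads from the start of their mouse entry for which a form 1 base shorter is recorded. In these arms the median share of reads on shorter forms was 16.1%. In miR-451a it was 85.5%, the 6th highest of the 66. miR-744-5p, the next arm above, had 89.1%, and the next arm below, miR-199a-3p/miR-199b-3p, had 76.6%. These neighbours were chosen after their values were seen. miR-486a-5p/miR-486b-5p stood at rank 35 with 15.6%. The form 1 base short was the most frequent in 13 of the 66 arms and the mouse entry in 45. The shares depend on which forms other species' entries record, and all lengths from 3 bases shorter to 1 base longer were recorded for 4 arms, miR-451a among them.

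**Figure D3:**
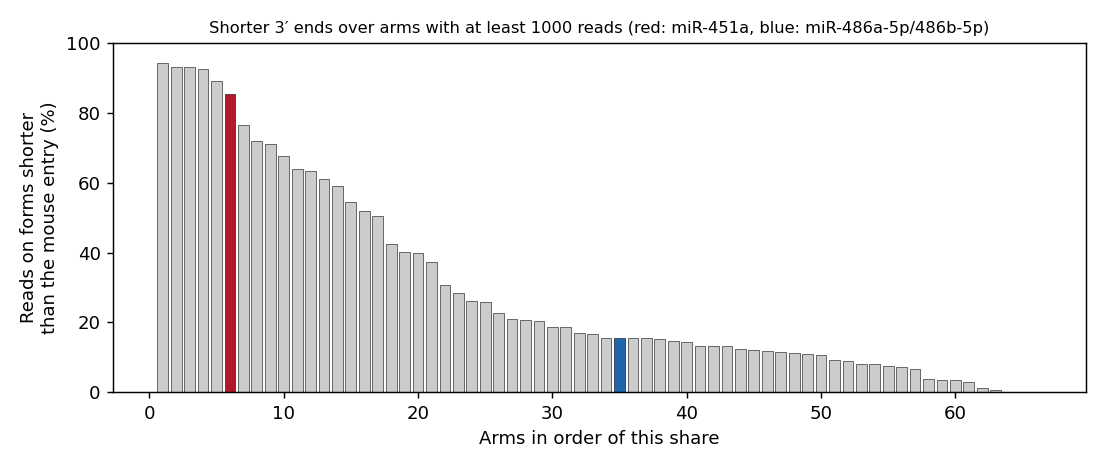
Share of reads on forms shorter than the mouse entry (y axis, percent) for 66 arms with at least 1000 reads, in falling order along the x axis. miR-451a, in red, is the 6th bar at 85.5%, and miR-486a-5p/miR-486b-5p, in blue, is the 35th at 15.6%.

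miR-144, the cluster partner of miR-451a, was close to the limit of this depth. Its 5p arm held 15 reads on the 23-nt mouse entry, 5 on a 22-nt form and 5 on a 24-nt form. Its 3p arm held 3 reads on the 20-nt mouse entry and 4 on a 21-nt form that starts 1 base earlier. Forms of the 3p arm 1 base shorter, 1 base longer and 2 bases longer than the mouse entry are recorded and had 0 reads. With end forms the 5p arm had 3.57 reads per read of the 3p arm (1.50 to 9.78), and by mouse entries 5 (1.41 to 26.9), so the 5p arm was higher beyond counting error under both counts.

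Both arms together had 32 reads with end forms, against 2635 of miR-451a. That is 82.3 reads of miR-451a per read of miR-144 (58.2 to 121), or 16.9 (10.5 to 29.0) by mouse entries alone. Unequal numbers of reads were common between adjacent hairpins in this library. Among 48 pairs of neighbouring hairpins on a strand, at most 1000 bases apart and with at least 100 reads in sum, the higher hairpin had a median of 11.4 times the reads of the lower one, with hairpins under 3 reads set to 3. The pair of Mir144 and Mir451a ranked 9th of the 48. Only hairpins whose mouse sequences each lie at a single place were used, and a hairpin can recur in several pairs.

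The early start of miR-144-3p moves its seed. These sequences are shown together, with the seed in capitals, because bases 2 to 7 or 2 to 8 are shared with miR-101, a family found in many tissues. The miR-101 entries are from RefSeq and the early form is from the table, written with U.
mmu-miR-144-3p: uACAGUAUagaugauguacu
mmu-miR-101a-3p: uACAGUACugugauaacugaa
miR-144-3p early start: cUACAGUAuagaugauguacu
mmu-miR-101b-3p: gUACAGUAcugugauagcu
The mouse entry of miR-144-3p shares bases 2 to 7 with the mouse entry of miR-101a-3p, and its early form shares bases 2 to 8 with that of miR-101b-3p. The miR-101 arms had reads at both starts. Of the 7390 reads of miR-101a-3p with end forms, 3402 carried bases 2 to 7 of the miR-144-3p entry, and 3988 carried bases 2 to 8 of its early form. Of the 2537 reads of miR-101b-3p with end forms, these numbers were 2211 and 326. With 3 and 4 reads, the starts of miR-144-3p could not be ranked. The early form made up 57.1% of the arm with an interval of 18.4 to 90.1.

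miR-486 comes from a locus with a miRNA gene annotated on each strand. On GRCm38, Mir486 lies at chr8:23142555-23142682 on the plus strand, in an intron of Ank1. Mir3107, the gene of miR-486b, lies at chr8:23142573-23142662 on the minus strand, within an intron of the antisense gene Gm15816 and opposite to Ank1. The 5p arm of each gives the same sequence. Its 22-nt mouse entry held 2549 reads, 83.1% of the arm (81.8 to 84.4), and a 21-nt form held 479, 15.6% (14.4 to 17.0). Both forms match both hairpins, so their 3028 reads cannot be given to a strand.

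A few forms of miR-486 match only 1 of the hairpins. Of the 5p forms with 23 nt, the form that matches Mir3107 alone held 30 reads and the form that matches Mir486 alone held 8. That is 3.75 reads to 1 (1.68 to 9.47). On the 3p arm, the 21-nt mouse entry of miR-486a-3p held 21 reads and a 22-nt form held 140. These 161 reads match Mir486 alone. The 20-nt miR-486b-3p matches both hairpins and held 4 reads. No recorded 3p form matches Mir3107 alone, so the 3p arm gives no count for the minus strand. The 23-nt forms differ from each other at the last base, and whether that base came from the genome or was added later was not tested.

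The 5p arm of miR-486 led its 3p arm. By mouse entries there were 102 reads of the 5p arm per read of miR-486a-3p and miR-486b-3p together (68.9 to 158). With end forms there were 18.6 (15.9 to 21.9), since the 22-nt 3p form, 1 base longer than the mouse entry, held 87.0% (80.8 to 91.7) of the miR-486a-3p reads.

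Liver holds blood in its vessels, and in RNA from whole tissue a smaller number of red cells and less RNA per cell cannot be told apart. The red cell list used here holds the 6 distinct members that had reads and leaves out miR-451b, which had 0. With end forms miR-122-5p, the main hepatocyte miRNA and the one the vector element is named after, had 260 reads per read of miR-451a (250 to 270). By mouse entries it had 774 (692 to 869). A list of 4 hepatocyte miRNAs held 58.1% of reads with end forms, against 0.0734% of the red cell list. Most of it was miR-148a-3p at 48.3%, followed by miR-122-5p at 8.53%, miR-192-5p at 1.02% and miR-194-5p at 0.232%. The sum thus rests mainly on miR-148a-3p, and the hepatocyte part of the reads of this list was not tested. Egfl7, an endothelial gene, gives miR-126a-3p, which held 134932 reads with end forms, 1.68%, and the pair of miR-126a arms held 1.70%.

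Leukocyte miRNAs also come with blood but mark resident immune cells too. Their sum was lower than that of the red cell miRNAs, which miR-486-5p and miR-451a made up almost entirely, while each of the 5 leukocyte miRNAs held more reads with end forms than either arm of miR-144 or miR-486b-3p. The list of 5 leukocyte miRNAs, all with reads, held 802 reads with end forms, 0.00998% (0.00931 to 0.0107). The red cell list had 7.35 reads per leukocyte read (6.83 to 7.93), and miR-451a alone had 3.29 (3.03 to 3.56). miR-142a-5p, found across blood cell lineages, held 369 reads with end forms, and miR-150-5p of mature lymphocytes held 171. miR-142a-3p held 146, and miR-223-3p, a miRNA of neutrophils and macrophages, held 63. miR-451a had 41.8 reads per read of miR-223-3p (32.6 to 54.6). By mouse entries alone the leukocyte list held 264 reads and the red cell list 2897, a ratio of 10.97 (9.67 to 12.5), and 2574 of the red cell reads were miR-486. Under that count miR-451a alone had 1.16 reads per leukocyte read (0.977 to 1.37), an interval that includes 1, and it had 7.26 per read of miR-223-3p (5.25 to 10.3).

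A list of 7 miRNAs that are abundant in red cells but made in many other cells held 12681 reads with end forms, 0.158%, above the red cell list itself. miR-25-3p led it with 6271 reads, followed by miR-92a-3p with 3336, miR-182-5p with 1430 and miR-16-5p with 958. miR-92a-3p had 77 reads by its mouse entry alone. Other cells of the liver are known to make these miRNAs as well, and the red cell part of their reads was not tested.

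Muscle miRNAs were high in this library, and muscle is a known source of miR-486. The striated muscle miRNAs miR-1a-3p, miR-206-3p and miR-133a-3p, all with reads, held 1165464 reads with end forms, 14.5%. miR-206-3p, which skeletal muscle makes, had 28.7 reads per read of miR-486-5p (27.7 to 29.8). The part of muscle RNA in the miR-486 reads was not tested. Without the miR-486 sequences, the red cell share with end forms was 0.0332% (0.0320 to 0.0345) in place of 0.0734%. By mouse entries it was 0.00485% (0.00433 to 0.00541) in place of 0.0435%.

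**Figure D4:**
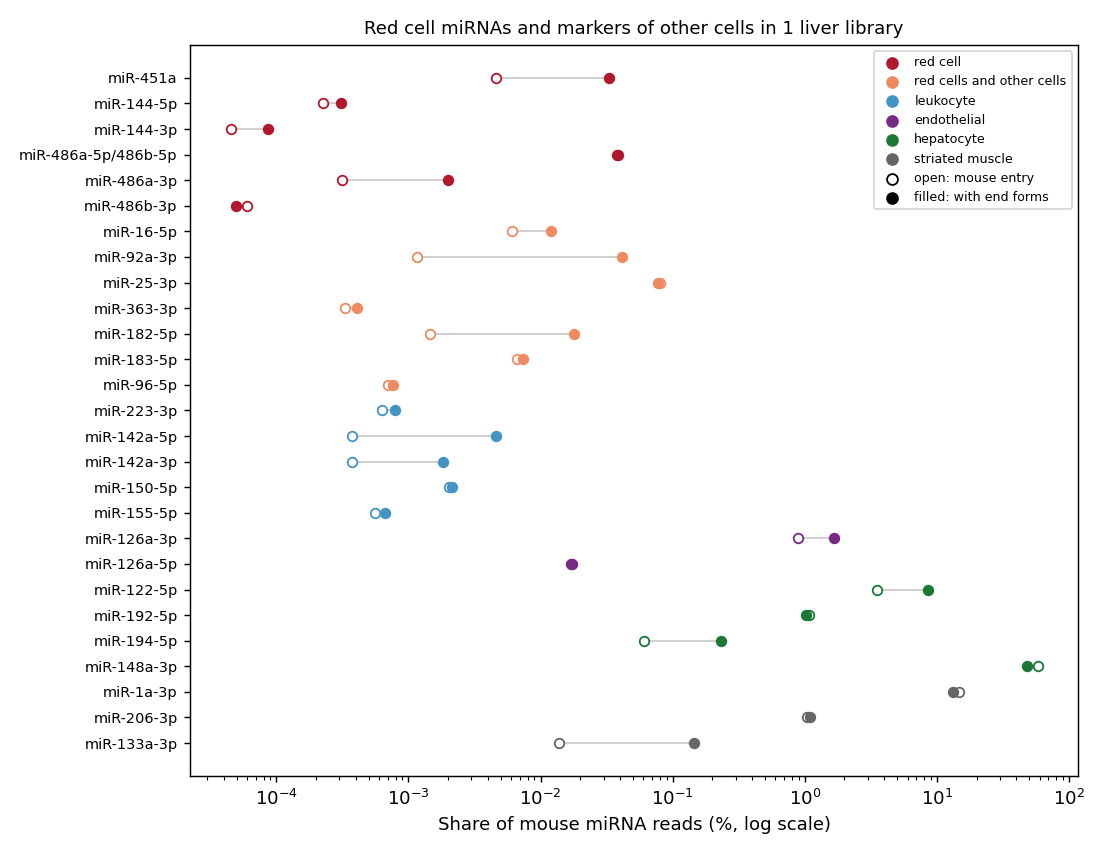
Share of mouse miRNA reads (x axis, percent, log scale) of each red cell miRNA and of markers of other cells, with 1 row a sequence and colours for the lists. Open points are mouse entries and filled points include end forms, and the total of the filled points includes end forms too. miR-451a moves from 0.00458% to 0.0328%. miR-486a-5p/miR-486b-5p has 0.0383% and 0.0382%, although its reads rise from 2549 to 3066, because the total also rises.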

How the data were processed

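Small RNA of mouse liver was ligated to adapters at each end, amplified, size-selected and sequenced as single reads, per the labels' protocols. The authors deposited raw counts of reads for the entries of a mature miRNA list of many species, per the file headers. The counting program is not given in the sources used here, and mm10 is named by the submitters' processing notes. The library column was tied to Cre-miR122 replicate 2 by that sample's title, and 0 library columns were left without a sample. The 48885 entries hold 30721 distinct sequences with 8163802 reads. Each distinct sequence was used once, since identical sequences had equal counts (0 exceptions). Nested entries of miR-451a had unequal counts that rise with length up to 21 nt, so a read was not counted for each entry that it contains.

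Other species' entries were looked up, without mismatches, in 2202 mouse hairpins of GENCODE M21 (GRCm38, the assembly of mm10). An entry was an end form of the mouse sequence it overlapped most, by at least 15 nt at every place found. Of 53 distinct sequences named miR-451, miR-144 or miR-486, 28 lay in a mouse hairpin, and the other 25 had 0 reads. Exact Clopper-Pearson 95% intervals are given for shares, and ratios have exact binomial intervals given the sum of both counts. The code for the intervals and for the assignment of forms was checked on simulated data. Those counts held counting error only, and those forms were cut without errors from the same hairpins. The check therefore could not show how either fares with PCR copies or sequencing errors. The comparison of Cre-miR122 with Cre, planned as a count test, could not be run with 1 library. Members, lists and the rule for named miRNAs (all members, their forms, and up to 4 highest of each list) were chosen with earlier results of these data known. The tools were RNAfold 2.7.2, SciPy 1.17.1, pandas 2.3.3, matplotlib 3.10.9, NumPy 2.4.6 and Python 3.11.15.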

Additional observations from a re-analysis of the deposited data

How the results depend on the processing

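With end forms, the red cell share was 0.0734% in place of 0.0435%, the miR-451a share 0.0328% in place of 0.00458%, the ratio of miR-486-5p to miR-451a 1.16 in place of 8.36 and the ratio of miR-451a to miR-144 82.3 in place of 16.9. With all distinct sequences as the total, the red cell, miR-451a and miR-486-5p shares were 0.0355%, 0.00374% and 0.0312%, and without miR-148a-3p in the total they were 0.103%, 0.0109% and 0.0909%. Chosen after seeing the data, leaving out miR-486 gave a red cell share of 0.00485%, or 0.0332% with end forms, and leaving 3 striated muscle miRNAs out of the total gave 0.0516%. These moves follow from the reads added or removed. A minimum of 10 reads left the red cell share at 0.0434%. With end forms the miR-486-5p share and the ratio of miR-144-3p to miR-144-5p (0.28 in place of 0.2) stayed within their intervals. The 11.6% of miR-451a reads on the mouse entry did not move when entries of any name or with other 3′ bases were allowed, since none added reads. Reads with other 3′ bases are counted only where the list has an entry for them, so this does not measure such bases on miR-451a. Other test tools, normalizations and leaving out replicates were not run, as they need several libraries. No paired analysis was possible because counts of a single library were used. Depth limits miR-144 and miR-486b-3p.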
